A study of Rattus norvegicus with 21 samples.

Results

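Amino acid transporter genes were followed through all 21 libraries of a study of rat pancreatic islets under glucolipotoxicity (GLT). A gene was included if its symbol belongs to the solute carrier families Slc1a, Slc3a, Slc6a, Slc7a, Slc36a, Slc38a or Slc43a and if it had at least 1 CPM (counts per M counts in genes) in at least 3 libraries. Of 58 rows of these families in the table of 17025 genes, 35 met this rule, and all 35 passed the filter on low counts and were tested. The members with the fewest libraries at 1 CPM or more were Slc7a3 and Slc7a10, with 10 libraries each. Slc6a12 reached that level in 2 libraries and lay just outside the rule, and Slc43a1 reached it in none (at most 0.935 CPM). The members comprise 5 Slc1a genes, 2 Slc3a genes, 6 Slc6a genes, 11 Slc7a genes, 2 Slc36a genes, 8 Slc38a genes and 1 Slc43a gene.

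Amino acid carriers move amino acids across the plasma membrane or out of lysosomes. Slc3a heavy chains pair with Slc7a light chains to form exchangers, Slc38a and several Slc1a and Slc6a carriers use the sodium gradient to concentrate amino acids, and Slc36a and some Slc38a proteins act in lysosomes. Several of these genes are known targets of ATF4, the transcription factor of the amino acid and unfolded protein stress responses, and beta cells make large amounts of protein and respond to leucine, glutamine and arginine with insulin secretion.

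Islets came from Sprague Dawley rats in 3 separate isolations, called preparations, each pooled from 8 animals and divided over the groups. The age and sex of the animals were not used here. Islets given a compound (D or E, 300 nM) were also under GLT, that is 27 mM glucose and 300 µM PA (taken here as palmitate), for 3 h or 24 h. Compound D was tested for 24 h and for 3 h (3 libraries each), compound E for 24 h (2 libraries, preparations 1 and 2) and for 3 h (1 library, preparation 2). GLT without a compound lasted 24 h or 3 h, and control islets had 11 mM glucose without PA for 24 h or 3 h (3 libraries each). The labels used here give neither structure nor target of either compound. Since groups share a preparation, the preparation was a term of the fit. The p-values measure the spread left after differences between preparations are removed, estimated over all 21 libraries.

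The sample records and the deposited sample sheet disagree about 6 libraries. By the records, condition 2 held control islets kept for 24 h and condition 3 islets under GLT for 3 h; the sheet exchanges these labels. Both are therefore called by number below, and each comparison with them is given under both readings. Summed levels of 7 endothelial marker genes were 194 to 222 CPM in condition 2, close to 158 to 210 CPM over the libraries of the 3 h groups with undisputed labels. The same sum was 72.3 to 108 CPM in condition 3, within the 26.4 to 109 CPM of the undisputed 24 h groups. Red cell markers divided in the same way, with 8.99 to 13.8 CPM in condition 2 and 0.571 to 0.665 CPM in condition 3, against 4.03 to 14.2 CPM in 3 h libraries and 0.377 to 1.34 CPM in 24 h libraries. Every undisputed 24 h group was under GLT, so culture time and long GLT exposure cannot be told apart in these marker ranges. Stellate cell markers set condition 3 apart from every other group, with sums of 1083 to 1512 CPM, against 397 to 474 CPM in condition 2, 343 to 911 CPM in the undisputed 24 h groups and 346 to 620.1 CPM in the undisputed 3 h groups. The collagens Col1a1 and Col3a1 made up most of that sum. Pdgfrb, another stellate marker, had 52.1, 55.6 and 60.9 CPM in condition 3, against 78.9, 66.9 and 65.6 CPM in condition 2. Dcn, Lum, Pdgfra and Acta2 went the other way, higher in condition 3 than in condition 2 in every preparation. Lum had 16.07, 17.88 and 11.04 CPM in condition 3, against 2.225, 2.623 and 2.524 CPM in condition 2. Acta2 had 9.894, 5.919 and 10.34 CPM in condition 3, against 4.276, 3.123 and 5.913 CPM in condition 2. Col1a2 had 0.331 CPM in the condition 3 library of preparation 2, against 244 and 240.2 CPM in the other two.

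The islet label held: the insulin genes took 9.32% to 45.9% of all counts, and 11 acinar markers summed to at most 27.7 CPM. At 24 h in preparation 1, insulin genes took 11.7% with compound D, 23% with GLT alone and 42.6% with compound E. The ribosomal RNA gene Rn45s took 7.23%, 1.57% and 2.38% of these libraries. In preparation 2 the same groups had 43.3%, 25.8% and 35.3% insulin and 1.56%, 1.59% and 2.05% Rn45s. The part of such differences in the transporter levels was not tested. Each library had between 22.3 and 40.2 M gene counts. In these bulk libraries, fewer cells of a type and less RNA per cell cannot be told apart. A few libraries stood apart. The 24 h GLT with compound E library of preparation 1 held the lowest level of 13 of 35 members and of 17% of all genes. The condition 3 library of preparation 2 had 23.4% of reads with several alignments and was lowest for 11% of genes, and the 24 h GLT with compound D library of preparation 2 was lowest for 9.93%.

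ATF4 binds composite C/EBP-ATF sites, for which TGATGCAA is a common form. The promoters of Slc38a1, Slc1a4 and Slc7a1 are shown because these genes, each of which passed in at least 1 comparison below, are the members whose RefSeq promoter window holds TGATGCAA or its variant TGATGNAA on either strand. TGATGCAA lies within TGATGNAA, so every match of the first is also a match of the second. TGATGCAA occurred in 2 of 32 promoter windows of 28 members (6.25%) and in 266 of 33469 windows of the genome (0.795%). TGATGNAA occurred in 3 of 32 (9.38%) and in 1332 of 33469 (3.98%). A window ran from 250 bases before to 50 bases after the start of a gene, and the 250 bases before the start are printed 5′ to 3′ on the gene's strand, from RefSeq on GRCr8, with the match in capitals. The match ends 135 bases before the start in Slc38a1 (chr7:129681402-129681651, minus strand), 228 bases before it in Slc1a4 (chr14:98761563-98761812, minus strand, motif on the other strand) and 23 bases before it in Slc7a1 (chr12:11664238-11664487, plus strand).
Slc38a1: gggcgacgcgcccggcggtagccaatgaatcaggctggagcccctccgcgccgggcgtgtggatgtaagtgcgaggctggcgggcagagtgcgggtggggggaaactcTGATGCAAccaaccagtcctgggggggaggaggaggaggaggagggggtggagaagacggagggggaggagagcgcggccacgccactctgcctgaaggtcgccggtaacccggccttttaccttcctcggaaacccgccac
Slc1a4: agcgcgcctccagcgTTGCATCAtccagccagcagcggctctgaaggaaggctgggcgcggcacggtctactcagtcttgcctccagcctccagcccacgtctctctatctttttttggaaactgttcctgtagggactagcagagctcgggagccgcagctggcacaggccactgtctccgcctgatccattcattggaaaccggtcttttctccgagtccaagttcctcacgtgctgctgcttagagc
Slc7a1: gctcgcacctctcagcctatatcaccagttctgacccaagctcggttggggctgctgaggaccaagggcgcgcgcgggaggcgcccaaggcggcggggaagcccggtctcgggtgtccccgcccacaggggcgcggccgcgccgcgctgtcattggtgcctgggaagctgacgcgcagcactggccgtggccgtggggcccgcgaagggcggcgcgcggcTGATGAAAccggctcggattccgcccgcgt

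Amino acid transporter genes changed in comparisons with conditions 2 and 3 and in some comparisons of groups with undisputed labels. A gene passed when its Benjamini-Hochberg adjusted p from edgeR's quasi-likelihood test over 12576 genes was below 0.05, with the preparation as a block. Between 24 h GLT and condition 2, 8 of 35 members passed (2 higher and 6 lower in 24 h GLT), which is 22.9% against 8.52% of all genes. This is 24 h GLT against 24 h control by the records and 24 h against 3 h of GLT by the sheet. Between 24 h GLT and condition 3, the 5 members that passed were higher in 24 h GLT (14.3% against 5.97% of all genes). That comparison is 24 h against 3 h of GLT by the records and 24 h GLT against 24 h control by the sheet. The members that passed in both were Slc7a3, higher in 24 h GLT each time, and Slc7a5, lower than in condition 2 and higher than in condition 3.

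Against the 3 h control, 3 members passed in condition 2, each higher there, beside 2.3% of all genes, and none passed in condition 3 beside 0.692% of all genes. In condition 3, 13 members had an unadjusted p below 0.05, and DESeq2 called 3. After 3 h of GLT with compound D, 8 members passed against condition 3 (7 higher, 1 lower, beside 6.93% of all genes), and none passed against condition 2 beside 0.485% of all genes, with 5 members at an unadjusted p below 0.05. Against the 3 h control, none passed with compound D at 3 h beside 0.103% of all genes, 3 had an unadjusted p below 0.05, and DESeq2 called 0. The difference between the GLT effect at 24 h and at 3 h passed in no member (0.0716% of all genes, 4 members at an unadjusted p below 0.05, DESeq2 1). This difference is the same contrast under both readings of the labels. Its estimates were largest for Slc6a5, at 3.13 ± 0.79 SE (edgeR adjusted p = 0.207), and Slc7a11, at 1.53 ± 0.47 SE (edgeR adjusted p = 0.34).

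With compound D, 3 members passed at 24 h against 24 h GLT (8.57% against 4.09% of all genes), and 4 passed between 24 h and 3 h (11.4% against 6.11% of all genes). With compound E at 24 h, none passed against 24 h GLT, and 0% of all genes did. At an unadjusted p below 0.05 there were 3 members and 812 genes, and DESeq2 called 0 members. Between compounds E and D at 24 h, 3 members passed beside 3.01% of all genes. Comparisons that share 24 h GLT, condition 2 or condition 3 share its libraries. Over 12 comparisons there were 40 member changes past the threshold, in 18 of 35 members. The matching share over all genes was not counted, and the shares for single comparisons are given with each. Each change had 1 direction in every preparation in which it could be read. The changes were selected on these same libraries, so this is no separate check. Without preparation 1 none of the 40 passed, nor did any without preparation 3. Over all genes the calls then numbered 0 to 21 and 0 to 277 per comparison.

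Markers of other islet cell types moved with several of these comparisons. The summed endothelial markers were 34.7 to 91.8 CPM in 24 h GLT, against 194 to 222 CPM in condition 2, and 26.4 to 109 CPM with compound D at 24 h, against 158 to 200 CPM at 3 h. Summed stellate cell markers were 346 to 470.4 CPM with compound D at 3 h, against 1083 to 1512 CPM in condition 3, a sum made up mostly of collagens. All 7 endothelial and 8 stellate markers were detected in every group. Their part in the transporter levels was not tested.

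**Figure D1:**
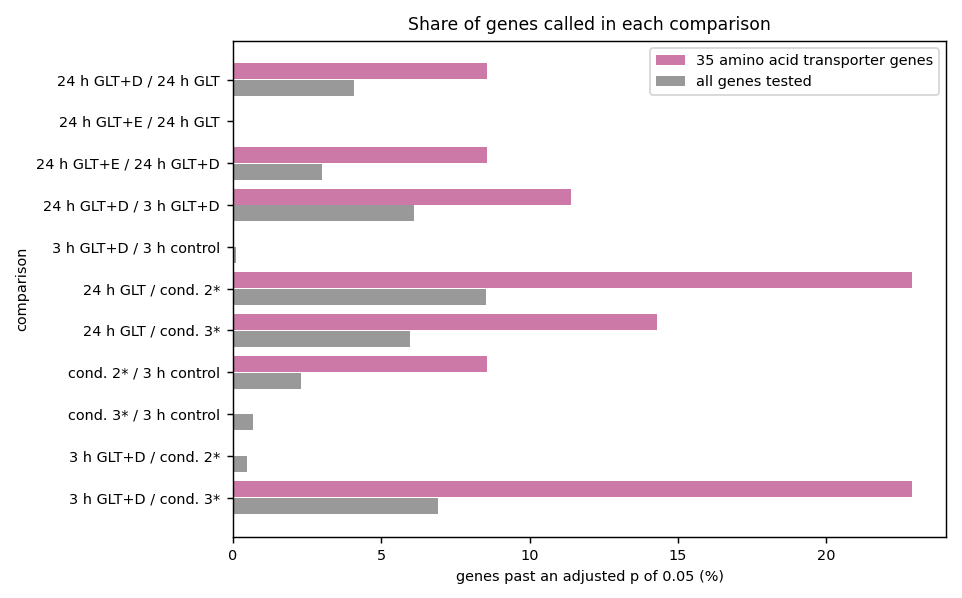
Bars give the share (%) of the 35 amino acid transporter genes and of all 12576 tested genes that passed an adjusted p of 0.05 in each comparison, named as the numerator and denominator of the fold change, with GLT+D and GLT+E for the compounds. An asterisk marks conditions 2 and 3, whose labels differ between records and sheet; the longest bars, 22.9%, belong to 24 h GLT against condition 2 and to 3 h GLT with compound D against condition 3.

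Among the Slc7a light chains, the genes for the leucine and cystine exchangers differed most clearly with the culture condition. Slc7a5 encodes an exchanger of large neutral amino acids such as leucine. Slc7a5 had 562, 604 and 609.7 CPM in 24 h GLT of preparations 1, 2 and 3, against 892, 859.8 and 841 CPM in condition 2 and 362, 427 and 417 CPM in condition 3. The 24 h GLT values lay between those of conditions 2 and 3 with no overlap. The log2 fold change of 24 h GLT was -0.55 ± 0.13 SE (edgeR adjusted p = 0.0178) against condition 2 and 0.56 ± 0.13 SE (edgeR adjusted p = 0.0207) against condition 3. In the 3 h control, Slc7a5 had 515, 557 and 500.5 CPM, below every condition 2 value, and condition 2 was higher by a log2 value of 0.72 ± 0.13 SE (edgeR adjusted p = 0.00615). With compound D at 3 h, Slc7a5 had 568, 588 and 592 CPM, above every condition 3 value (log2 difference 0.54 ± 0.13 SE, edgeR adjusted p = 0.0214) and below every condition 2 value (log2 difference -0.57 ± 0.13 SE, adjusted p = 0.0705).

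Slc7a11 encodes the cystine and glutamate exchanger, which supplies cystine for glutathione. It had 87.5, 52.9 and 108 CPM in 24 h GLT, against 18.5, 17 and 22.4 CPM in condition 3 and 45.1, 40.9 and 63.2 CPM in condition 2. Every 24 h GLT library lay above every condition 3 library, while its range overlapped that of condition 2. The log2 difference was 2.07 ± 0.35 SE (edgeR adjusted p = 0.00415) against condition 3, and 0.72 ± 0.33 SE against condition 2, which did not pass (adjusted p = 0.208). With a compound at 24 h, Slc7a11 had 48.9, 26.7 and 69.4 CPM with D and 39.7 and 57.5 CPM with E (preparations 1 and 2). In preparations 1 and 3 the compound D value was below that of 24 h GLT, as in preparation 2, but neither compound's difference passed: -0.79 ± 0.33 SE (adjusted p = 0.235) for D and -0.58 ± 0.39 SE (adjusted p = 0.566) for E. After 3 h with compound D it had 53.7, 31.1 and 57.2 CPM, above every condition 3 library, with a log2 difference of 1.28 ± 0.34 SE (edgeR adjusted p = 0.0349).

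Slc7a6, whose product exchanges cationic for neutral amino acids, had 57.1, 38.7 and 55.2 CPM with compound D at 3 h, against 35.4, 36.7 and 36.6 CPM in condition 3. The groups did not overlap, and the difference of 0.46 ± 0.13 SE (edgeR adjusted p = 0.045) was the smallest in size of the 8 that passed there. Condition 2 had 63, 55.9 and 60.3 CPM, above every library of the other groups except those with compound D at 3 h, whose range it overlapped. Slc7a10, a carrier of small neutral amino acids such as glycine, stayed low, with 0.415, 0.463 and 0.32 CPM in 24 h GLT against 1.48, 1.71 and 1.0 CPM in condition 2. Its log2 difference was -1.79 ± 0.52 SE (edgeR adjusted p = 0.0443), with groups that did not overlap. Its condition 3 values of 0.43, 1.05 and 0.299 CPM overlapped 24 h GLT and did not pass (edgeR adjusted p = 0.656).

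Slc3a2 encodes the heavy chain that carries Slc7a5, Slc7a6 and Slc7a11 to the cell surface. It passed in no comparison. It had 439, 511 and 504 CPM in 24 h GLT, against 611, 679 and 583 CPM in condition 2 and 360.3, 419.8 and 400.4 CPM in condition 3. The order of the groups was that of Slc7a5, without overlap, with log2 differences of -0.37 ± 0.14 SE (adjusted p = 0.112) and 0.30 ± 0.14 SE (adjusted p = 0.215). Slc3a1, the heavy chain for cystine and dibasic amino acids known from kidney, ranged over 18.6 to 41.7 CPM in the 21 libraries. Among light chains, Slc7a7 ranged over 1.93 to 4.84 CPM and Slc7a8, an exchanger of neutral amino acids, over 194 to 403 CPM, and neither passed anywhere. Levels are in CPM, not corrected for gene length, so they compare libraries and not genes.

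**Figure D2:**
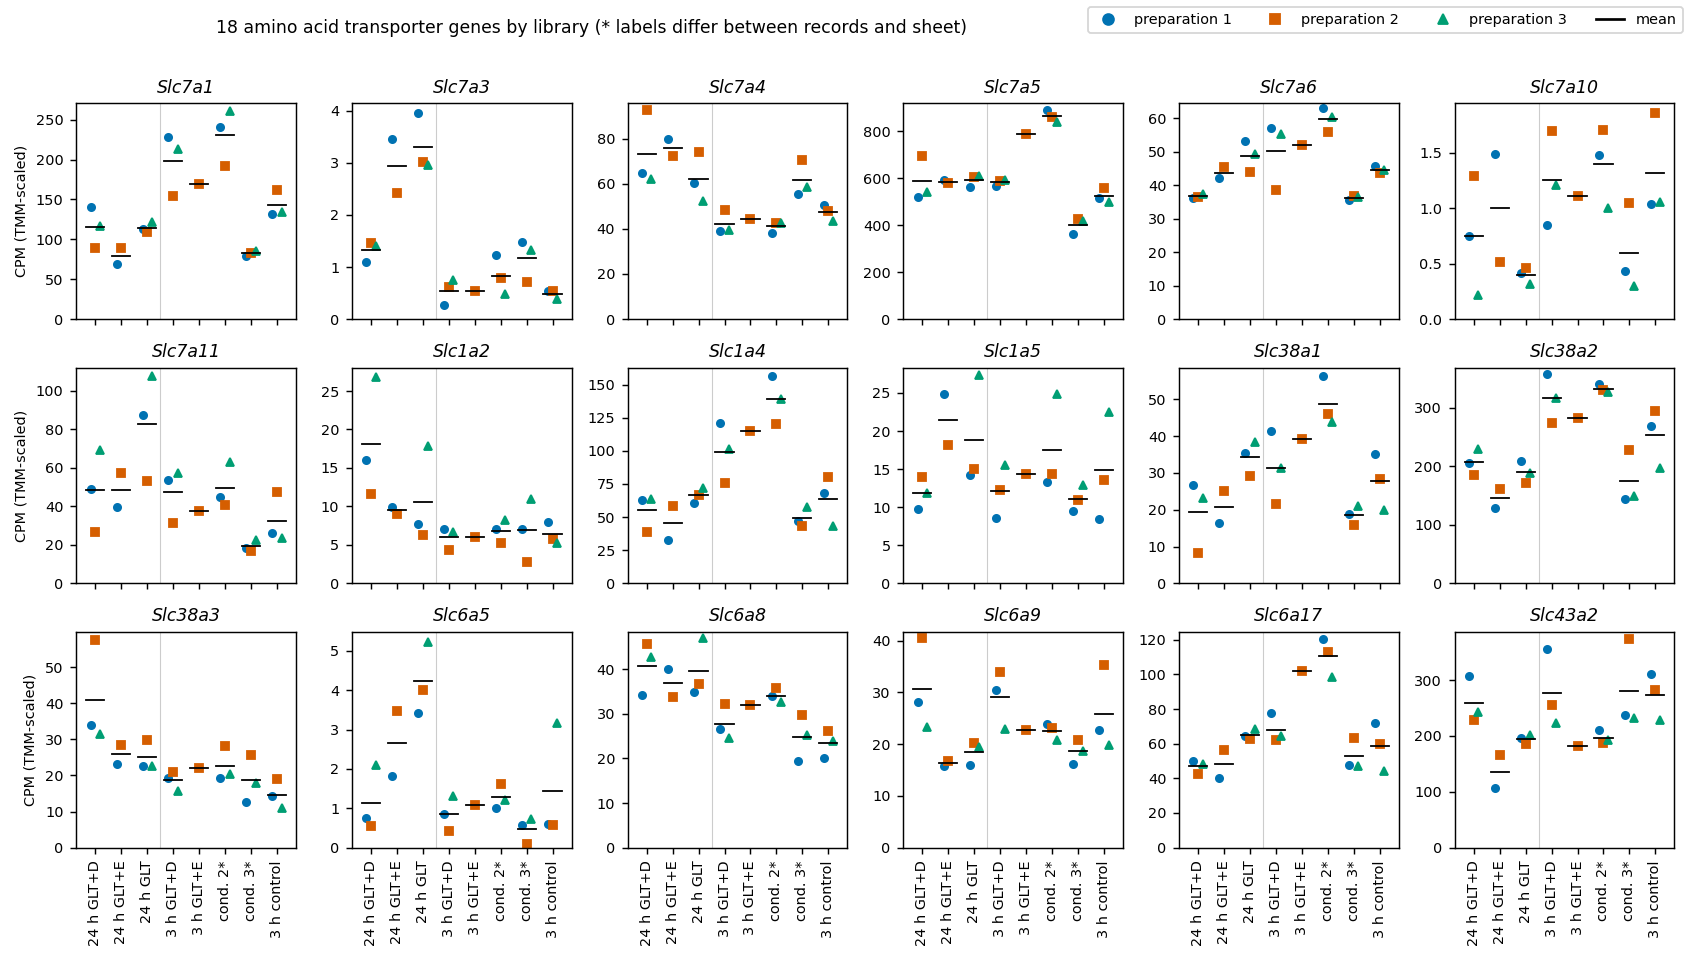
Each panel plots 1 of the 18 members that passed in at least 1 comparison, with a point per library (CPM, scaled by TMM factors), its preparation as shape and colour and the group mean as a line. The grey line separates the 24 h groups with undisputed labels from the 3 h groups and conditions 2 and 3. For Slc7a5, Slc1a4 and Slc6a17 the condition 2 points are the highest of the groups without a compound, and condition 3 lies near the 3 h control or below it.

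Of the cationic carriers, which bring in arginine and lysine, Slc7a1 passed in 4 comparisons. It had 113, 109 and 122 CPM in 24 h GLT, against 240.2, 192 and 261 CPM in condition 2 and 79.5, 82.9 and 85.2 CPM in condition 3. The 24 h GLT libraries lay below every condition 2 library and above every condition 3 library. Its log2 difference was -1.0 ± 0.19 SE (edgeR adjusted p = 0.00518) against condition 2, and 0.47 ± 0.18 SE against condition 3, which did not pass (adjusted p = 0.149). Compound D libraries had 139.9, 89.6 and 116 CPM at 24 h and 229, 154 and 213 CPM at 3 h. The 24 h values lay below the 3 h values (-0.79 ± 0.18 SE, edgeR adjusted p = 0.0219), and the 3 h values lay above condition 3 (1.26 ± 0.19 SE, edgeR adjusted p = 0.00218). Under 24 h GLT, compound D left no measurable difference in Slc7a1, with a log2 interval of -0.39 to 0.39 (95%).

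Slc7a3, a cationic carrier best known from brain, had its highest levels in 24 h GLT and with compound E at 24 h. It had 3.96, 3.01 and 2.95 CPM in 24 h GLT, against 1.22, 0.791 and 0.484 CPM in condition 2 and 1.49, 0.721 and 1.33 CPM in condition 3, with no overlap. The log2 differences were 2.01 ± 0.39 SE (edgeR adjusted p = 0.00719) and 1.5 ± 0.38 SE (edgeR adjusted p = 0.0319). With a compound at 24 h, it had 1.1, 1.47 and 1.39 CPM with D, below every 24 h GLT library, and 3.46 and 2.43 CPM with E. The compound D difference of -1.31 ± 0.37 SE did not pass (adjusted p = 0.0665).

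Slc7a4 is a relative of the cationic carriers whose transport activity is not established. It had 60.1, 74.3 and 52.5 CPM in 24 h GLT, against 38.1, 42.6 and 42.4 CPM in condition 2 and 55.4, 70.4 and 58.7 CPM in condition 3. It was higher in 24 h GLT than in condition 2 without overlap (0.59 ± 0.14 SE, edgeR adjusted p = 0.0215), and overlapped condition 3 (adjusted p = 0.975). Compound D libraries had 64.6, 92.9 and 62.1 CPM at 24 h, all above the 39.1, 48.3 and 39.4 CPM at 3 h (0.78 ± 0.14 SE, edgeR adjusted p = 0.00616). At 3 h, Slc7a4 was the member that passed as lower with compound D than in condition 3 (-0.54 ± 0.14 SE, edgeR adjusted p = 0.0322). Slc7a2, an arginine carrier, ranged over 65.9 to 439.6 CPM and Slc7a14, a lysosomal relative, over 0.385 to 4.93 CPM. Both were lowest in the 24 h GLT with compound E library of preparation 1 and passed in no comparison.

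The Slc1a family holds carriers of glutamate and of neutral amino acids. Slc1a4, for alanine, serine and cysteine, had 60.5, 66.4 and 72.3 CPM in 24 h GLT, against 157, 120.3 and 139 CPM in condition 2 and 46.7, 43.1 and 57.9 CPM in condition 3. Every 24 h GLT library lay far below condition 2 (-1.06 ± 0.27 SE, edgeR adjusted p = 0.0285) and slightly above condition 3, which did not pass (0.44 ± 0.27 SE, adjusted p = 0.392). The 3 h control had 68.1, 80.3 and 43.4 CPM, all below condition 2, whose difference from it was 1.11 ± 0.28 SE (edgeR adjusted p = 0.0494). Compound D libraries had 121, 75.7 and 101 CPM at 3 h, above condition 3 in every preparation (1.01 ± 0.27 SE, edgeR adjusted p = 0.039).

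Slc1a5, a glutamine carrier, differed between the compounds. It had 24.8 and 18.2 CPM with compound E at 24 h, against 9.71, 14 and 11.8 CPM with compound D. Both compound E libraries lay above all compound D libraries (1.08 ± 0.26 SE, edgeR adjusted p = 0.0366), and 24 h GLT with 14.2, 15.1 and 27.4 CPM overlapped the compound E range. Slc1a2, a glutamate carrier best known from astrocytes, had 16, 11.7 and 26.8 CPM with compound D at 24 h and 7.11, 4.37 and 6.63 CPM at 3 h. The 24 h libraries were all higher (1.53 ± 0.32 SE, edgeR adjusted p = 0.0124), with the highest in preparation 3. The glutamate carriers Slc1a1 (0.601 to 3.6 CPM) and Slc1a3 (4.4 to 9.24 CPM) passed in no comparison.

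Of 8 Slc38a genes, whose products carry glutamine and other neutral amino acids, 3 passed in some comparison. The matching share of all genes over the comparisons was not counted, so no conclusion about the family is drawn from this count. Slc38a2, a sodium-coupled carrier induced by amino acid shortage, had 209, 172 and 189 CPM in 24 h GLT, against 340.1, 329.9 and 327 CPM in condition 2 and 144, 228 and 149.8 CPM in condition 3. Its 24 h GLT libraries lay below every condition 2 library (-0.81 ± 0.20 SE, edgeR adjusted p = 0.0225) and overlapped condition 3. With compound D at 3 h it had 357, 275 and 316 CPM, above every condition 3 library (0.87 ± 0.20 SE, edgeR adjusted p = 0.0178). At 24 h with compound D it had 205, 185 and 230.1 CPM, overlapping 24 h GLT.

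Slc38a3, a glutamine, histidine and asparagine carrier best known from liver and kidney, was higher with compound D. It had 34.1, 57.4 and 31.4 CPM with compound D at 24 h, against 22.7, 29.9 and 22.6 CPM in 24 h GLT, and 19.2, 21 and 15.6 CPM with compound D at 3 h. Every 24 h compound D library lay above every library of both other groups, with the highest in preparation 2. The log2 differences were 0.67 ± 0.17 SE (edgeR adjusted p = 0.0381) against 24 h GLT and 1.09 ± 0.17 SE (edgeR adjusted p = 0.00214) against 3 h. With compound E at 24 h it had 23.1 and 28.6 CPM, inside the range of 24 h GLT.

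Slc38a1, a neutral amino acid carrier, had 26.7, 8.21 and 23.1 CPM with compound D at 24 h, against 35.5, 29.2 and 38.3 CPM in 24 h GLT. These groups did not overlap, the lowest being the compound D library of preparation 2, but the difference did not pass (-0.88 ± 0.32 SE, adjusted p = 0.158). It passed in the difference of compound D effects between 24 h and 3 h under the records' labels. The other 5 passed nowhere. Slc38a5, a glutamine carrier of islet alpha cells in mice, ranged over 751 to 3278 CPM. Its 24 h compound D values of 1511, 3278 and 827 CPM (preparations 1 to 3) exceeded the 3 h values of 781, 1407 and 751 CPM within each preparation, with a difference of 0.81 ± 0.29 SE (adjusted p = 0.11). Summed alpha cell markers ran from 11269 to 32327 CPM over the libraries, and their part in the Slc38a5 levels was not tested. Slc38a4 ranged over 178 to 434 CPM, Slc38a6 over 0.704 to 1.73 CPM, the lysosomal glutamine carrier Slc38a7 over 4.24 to 12.3 CPM and the lysosomal arginine sensor Slc38a9 over 1.59 to 7.35 CPM.

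The Slc6a family couples uptake to sodium and chloride. Slc6a5 and Slc6a9 encode the glycine carriers. Slc6a5 had 3.43, 4.02 and 5.23 CPM in 24 h GLT, against 0.587, 0.0901 and 0.731 CPM in condition 3 and 1.0, 1.62 and 1.21 CPM in condition 2. Each 24 h GLT library lay above every library of the other groups except 1 with compound E, and the condition 3 library of preparation 2 was close to the level of 3 counts (0.0804 to 0.144 CPM, depending on the library). The log2 difference was 3.32 ± 0.59 SE (edgeR adjusted p = 0.00562) against condition 3 and 1.66 ± 0.53 SE (adjusted p = 0.0692) against condition 2. Compound D libraries at 24 h had 0.752, 0.561 and 2.09 CPM, all below 24 h GLT (-2.08 ± 0.54 SE, edgeR adjusted p = 0.0435), and compound E libraries had 1.83 and 3.49 CPM.

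Slc6a9 went the other way with compound D. It had 28.1, 40.5 and 23.3 CPM with compound D at 24 h and 15.8 and 16.7 CPM with compound E, against 15.9, 20.2 and 19.4 CPM in 24 h GLT. The compound D libraries lay above all others of these 3 groups. The log2 differences were 0.69 ± 0.18 SE (edgeR adjusted p = 0.042) for D against GLT and -0.97 ± 0.21 SE (edgeR adjusted p = 0.021) for E against D. At 3 h, compound D libraries had 30.5, 34 and 22.9 CPM, above every condition 3 library (16.2, 20.9 and 18.8 CPM, 0.64 ± 0.18 SE, edgeR adjusted p = 0.0444). They overlapped condition 2 (23.9, 23.1 and 20.85 CPM), against which no member passed. The 3 h control, with 22.7, 35.2 and 19.8 CPM, also overlapped them and did not pass (edgeR adjusted p = 0.99). Slc6a9 overlaps the coding gene Ccdc24 in RefSeq, and without a stated strand setting reads of such pairs may be shared; Slc1a1, Slc36a4, Slc38a6, Slc3a1 and Slc7a10 have the same limit.

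Slc6a17, a vesicular carrier of neutral amino acids in neurons, had 64.6, 62.6 and 68.4 CPM in 24 h GLT, against 121, 113 and 98.5 CPM in condition 2 and 71.8, 59.8 and 44.4 CPM in the 3 h control. Condition 2 lay above both groups without overlap. The log2 difference was -0.75 ± 0.18 SE (edgeR adjusted p = 0.020) for 24 h GLT against condition 2 and 0.92 ± 0.18 SE (edgeR adjusted p = 0.0118) for condition 2 against the 3 h control. Condition 3, with 47.4, 63.3 and 47.4 CPM, overlapped 24 h GLT, and that difference did not pass (0.31 ± 0.18 SE, edgeR adjusted p = 0.342). Slc6a8, the creatine carrier, had 34.9, 36.8 and 47 CPM in 24 h GLT, against 19.5, 29.8 and 25.2 CPM in condition 3, all lower (0.68 ± 0.17 SE, edgeR adjusted p = 0.0277). Its condition 2 values of 33.9, 35.7 and 32.7 CPM overlapped 24 h GLT and did not pass (0.21 ± 0.16 SE, edgeR adjusted p = 0.498). The taurine carrier Slc6a6 ranged over 27.4 to 202 CPM and passed in no comparison.

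Slc43a2 encodes a facilitative carrier of leucine and other large neutral amino acids. It had 106 and 166 CPM with compound E at 24 h, against 308, 229 and 243 CPM with compound D and 196, 186 and 202 CPM in 24 h GLT. Both compound E values lay below all values of the other groups, the lowest in preparation 1. The difference between E and D was -1.01 ± 0.25 SE (edgeR adjusted p = 0.0453), while neither compound passed against 24 h GLT (adjusted p = 0.367 for D, adjusted p = 0.566 for E). The proton-coupled carriers Slc36a1 (5.14 to 17.9 CPM) and Slc36a4 (5.0 to 29.2 CPM) were both lowest in the compound E library of preparation 1 and passed nowhere.

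**Figure D3:**
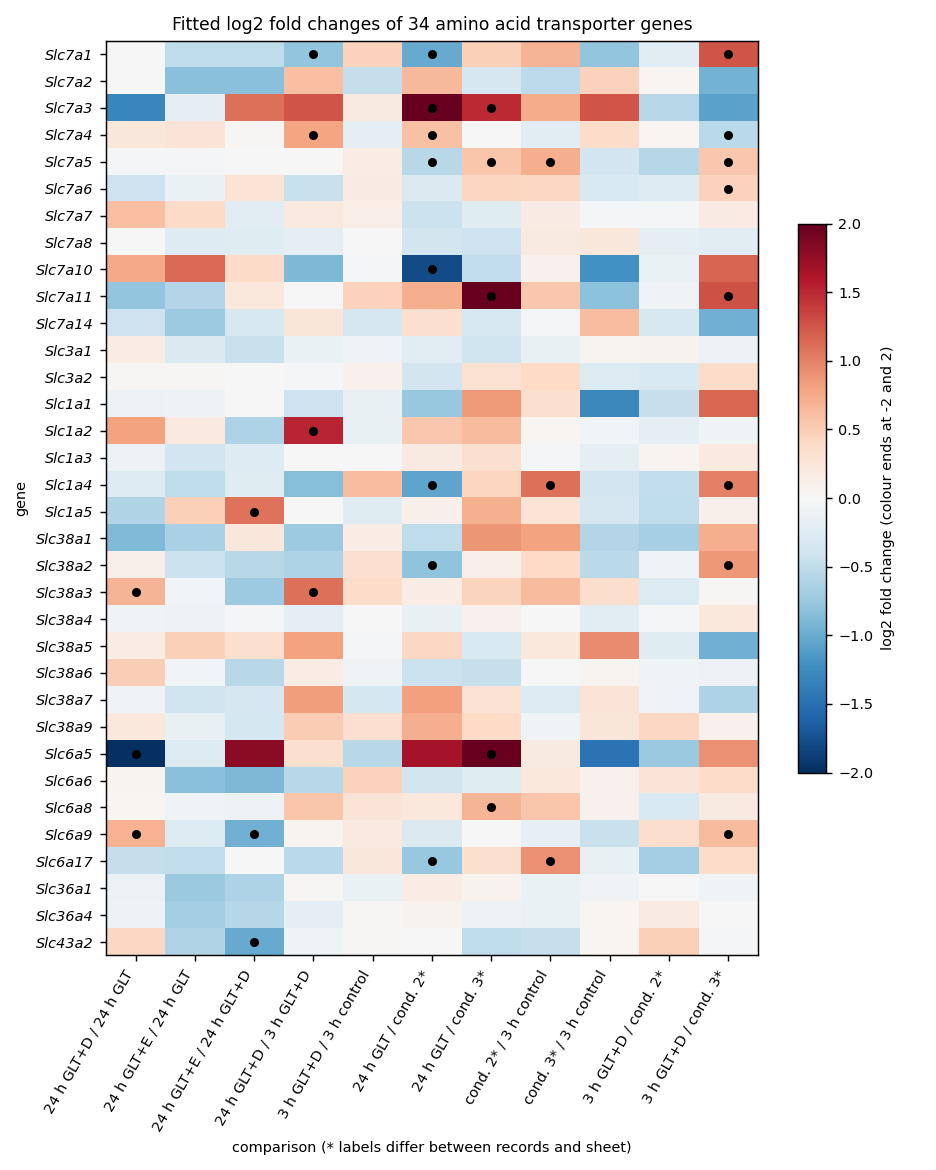
The map shows the fitted log2 fold change of 34 of the 35 members (lines) in the comparisons of groups (columns; asterisks mark conditions 2 and 3), with red for a higher and blue for a lower level in the first-named group; colour ends at -2 and 2, and dots mark an adjusted p below 0.05. The 24 h GLT columns against conditions 2 and 3 hold 8 and 5 dots.

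Compounds D and E were compared at the matched dose of 300 nM and the matched time of 24 h, 1 pair of groups, over 35 members. Slc1a5 was higher with E, and Slc43a2 and Slc6a9 were lower with E, as given above. Without the compound E library of preparation 1, none of the 3 passed, and with the compound D library of preparation 2 left out none of the 3 changes of D against 24 h GLT passed. Without preparation 2 as a whole, which leaves 1 compound E library, assumed to vary like the other groups, 14 members passed between E and D, where 4543 genes in all (36.4% of those tested) passed. Several members had narrow intervals around 0 between E and D. The 95% interval of the log2 difference was -0.31 to 0.30 for Slc7a5, -0.33 to 0.33 for Slc3a2 and -0.32 to 0.36 for Slc7a4. For Slc7a2 it was -2.12 to 0.46 and for Slc6a6 -1.99 to 0.21, wide enough to hold differences of over 2-fold. For Slc7a3 it was 0.21 to 2.0, with E higher, but the difference did not pass over all genes (adjusted p = 0.176).

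**Figure D4:**
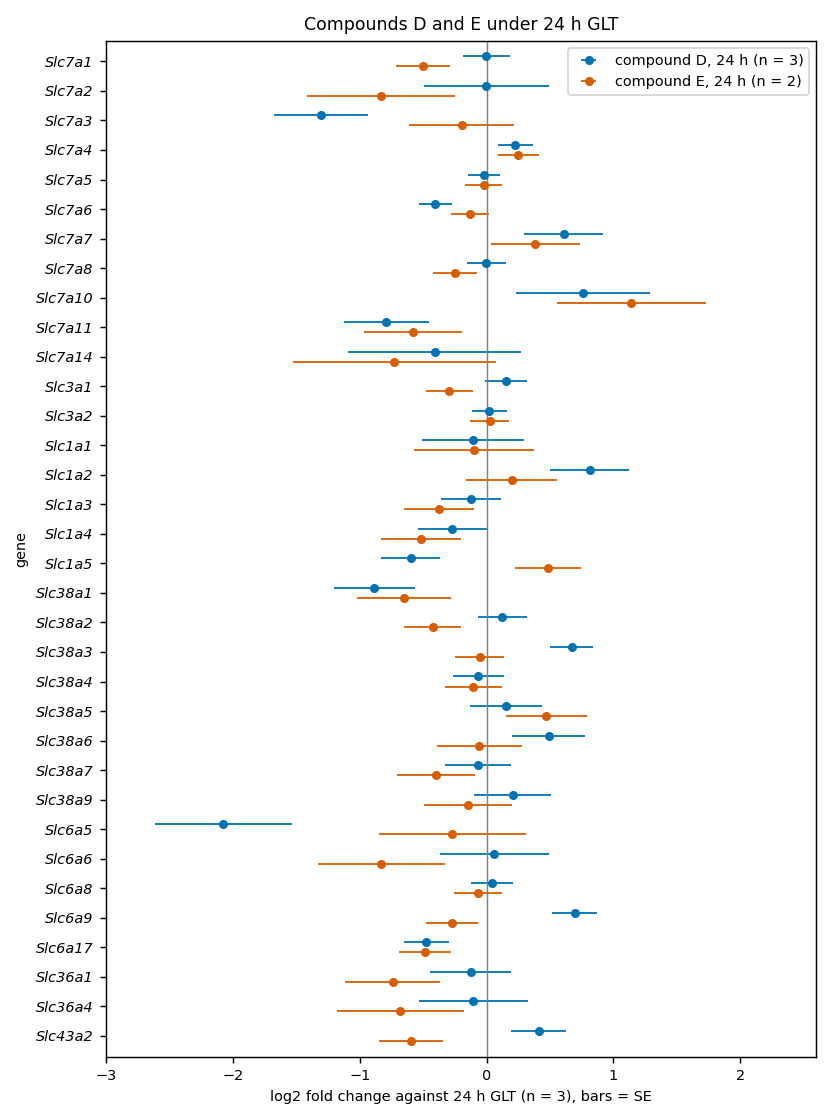
Points give the log2 fold change of 34 of the 35 members with compound D (blue, n = 3) and compound E (orange, n = 2) at 24 h against 24 h GLT (n = 3), with bars of 1 SE. Slc6a5, Slc6a9 and Slc38a3 are the members that passed for compound D, and none passed for compound E. Slc1a5, Slc6a9 and Slc43a2, which passed between E and D, are among several members on opposite sides of 0 for D and E.

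At 3 h, compound E has 1 library (preparation 2), so its differences have no replicate check. Against the compound D library of the same preparation at 3 h, 1 member was past 2-fold, beside 4.45% of all genes. It was Slc6a5, at 1.08 CPM with E against 0.417 CPM with D. Its log2 difference was 1.23, taken with a prior count of 2, which shrinks differences at low counts. Against the preparation 2 library of condition 2 no member was past 2-fold (2.52% of all genes), and against that of condition 3 there were 11 (19.1% of all genes). Against that of the 3 h control none was past 2-fold (5.67% of all genes). Slc7a5 had 786 CPM with compound E at 3 h and Slc1a4 115 CPM, with log2 differences from the compound D library of 0.42 and 0.60.

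Compound D effects could be compared between 24 h and 3 h only through a disputed condition. With condition 3 as 3 h GLT (records), the difference passed in 6 members (17.1% against 7.75% of all genes): Slc7a1, Slc7a6, Slc7a11, Slc38a1 and Slc6a5 were lower and Slc7a4 higher. With condition 2 as 3 h GLT (sheet), none passed, beside 0.0318% of all genes, with 3 members at an unadjusted p below 0.05. For Slc7a1 the estimate was -1.26 ± 0.26 SE (edgeR adjusted p = 0.0102) by the records and 0.22 ± 0.26 SE (edgeR adjusted p = 0.874) by the sheet, which also turns its sign.

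Genes of the amino acid response and other ATF4 targets outside the carrier families (34, all tested) were described in the same comparisons, with means over the libraries of a group. With compound D at 24 h against 24 h GLT, 5 of 34 passed beside 4.09% of all genes, 2 higher and 3 lower. The median log2 difference was 0.14, against 0.00809 over all genes. Bcat1, which starts branched-chain amino acid breakdown, averaged 15.4 CPM with compound D and 60.6 CPM in 24 h GLT (-1.92 ± 0.19 SE, edgeR adjusted p = 0.000126). Atf3, a stress transcription factor, averaged 10.5 CPM with compound D and 39.5 CPM in 24 h GLT (-1.89 ± 0.32 SE, edgeR adjusted p = 0.00499). The serine synthesis enzyme Phgdh was higher with compound D (0.84 ± 0.16 SE, edgeR adjusted p = 0.0104), in the opposite direction to Bcat1 and Atf3. With compound E against D at 24 h, 7 of 34 passed beside 3.01% of all genes, 5 higher and 2 lower. Bcat1 (2.04 ± 0.21 SE, edgeR adjusted p = 0.000292) and Atf3 (1.93 ± 0.35 SE, edgeR adjusted p = 0.00771) were higher with E. Psat1, another serine synthesis enzyme, was lower (-1.0 ± 0.23 SE, edgeR adjusted p = 0.0262). With compound E against 24 h GLT, 0 of 34 passed in edgeR and 0 in DESeq2, with 1 at an unadjusted p below 0.05.

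For 24 h GLT, 8 of these 34 genes passed against condition 2 (3 higher, 5 lower) and 7 against condition 3 (all 7 higher). The shares of all genes were 8.52% and 5.97%. Bcat1 was higher against both, with log2 differences of 2.04 ± 0.19 SE (edgeR adjusted p = 4.50e-05) and 2.16 ± 0.19 SE (edgeR adjusted p = 3.68e-05). Chac1, which degrades glutathione and is induced by ATF4, averaged 84.9 CPM in 24 h GLT and 340.5 CPM in condition 2 (-1.93 ± 0.22 SE, edgeR adjusted p = 0.000259). Atf4 itself averaged 479 CPM in 24 h GLT and 330.0 CPM in condition 3 (0.53 ± 0.15 SE, edgeR adjusted p = 0.047). Condition 2 against the 3 h control gave 3 of 34 (all higher, led by Ppp1r15a, 1.27 ± 0.23 SE, edgeR adjusted p = 0.00843), and condition 3 against it gave 2 of 34, Mthfd2 and Chac1, both lower. Over all genes, 2.3% and 0.692% passed there. With compound D at 3 h, 5 of 34 passed against condition 3 beside 6.93% of all genes. All were higher, led by Chac1 (1.58 ± 0.22 SE, edgeR adjusted p = 0.00152). Against condition 2 edgeR called 0 (7 at an unadjusted p below 0.05), and against the 3 h control edgeR and DESeq2 called 0 (3 at that level). Between 24 h and 3 h of compound D, 5 of 34 passed beside 6.11% of all genes. All were higher, led by Phgdh (1.64 ± 0.17 SE, edgeR adjusted p = 0.000124). In the difference between the GLT effects at 24 h and 3 h, Bcat1 was the gene of this list that passed, beside 0.0716% of all genes. Its estimate was 1.97 ± 0.27 SE (edgeR adjusted p = 0.00589). In the difference between compound D effects at 24 h and 3 h, 7 of 34 passed by the records and 1 by the sheet. Over all genes, the shares were 7.75% and 0.0318%. Bcat1 was lower by both, at -1.82 ± 0.26 SE (edgeR adjusted p = 0.00138) and -1.69 ± 0.26 SE (edgeR adjusted p = 0.0394).

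Of 22 amino acid carriers outside the 7 families, 16 were tested. With compound D at 24 h against 24 h GLT, 2 passed beside 4.09% of all genes. Slc17a6, a vesicular glutamate carrier, averaged 0.799 CPM with compound D and 4.3 CPM in 24 h GLT (-2.5 ± 0.38 SE, edgeR adjusted p = 0.00262), and the mitochondrial carrier Slc25a29 was also lower (-1.63 ± 0.34 SE, edgeR adjusted p = 0.017). Both were higher with compound E than with compound D at 24 h (2.07 ± 0.42 SE, edgeR adjusted p = 0.0164 for Slc17a6). In each other comparison of groups 0 to 2 of the 16 passed, beside 0% to 8.52% of all genes. Of 23 tested genes of mTORC1, its amino acid sensing and its other regulators, 0 to 2 passed in any comparison, beside 0% to 8.52% of all genes. Flcn was higher in 24 h GLT than in condition 3 (0.55 ± 0.13 SE, edgeR adjusted p = 0.0199). Tsc2 was higher at 24 h than at 3 h with compound D (0.53 ± 0.13 SE, edgeR adjusted p = 0.0269), where 6.11% of all genes passed.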

How the data were processed

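RNA from islets was sequenced as paired 100 bp reads on a HiSeq instrument, per the labels. Per the submitters' processing notes, TopHat2 2.0.3 with Bowtie2 2.0.0 mapped them against the rn5 build, and the authors counted reads per gene with HTSeq. The strand setting and annotation are not given in the sources used here. The authors' deposited table holds raw counts of 17025 genes plus 5 entries without a gene name. These 5 entered neither library sizes nor tests (no feature 10.3% to 18.7%, several alignments 4.92% to 23.4%, ambiguous 0.161% to 2.32% of each column). Groups were taken from the sample records, and the deposited sheet's labels for 6 libraries were run as an alternative.

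Genes were filtered with filterByExpr (12576 kept), scaled by TMM (factors 0.682 to 1.32) and fitted in edgeR 4.0.16 (R 4.3.3) with glmQLFit and glmQLFTest over all 21 libraries, with group and preparation as terms. The p-values were Benjamini-Hochberg adjusted over all genes with a threshold of 0.05. Levels are CPM with TMM scaling, and 3 counts correspond to 0.0804 to 0.144 CPM. The preparation was kept as a block because the labels state that each isolation was divided over the groups; residuals of libraries of preparations 1, 2 and 3 had mean correlations of 0.0698, 0.183 and 0.425. Counts of libraries of 1 group differed by a chi-square per degree of freedom of at least 27.7, so no library was a copy of another of its group. Libraries of different groups were not compared in this way. The fit was tested on simulated counts with known changes. Alternatives were DESeq2 1.42.0, other scalings, no filter, no block, a fit of only the groups compared, and leaving out libraries. The 3 h compound E library was described by 2-fold differences within preparation 2, on log2 CPM with a prior count of 2.

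Members that passed are given with values and the others with ranges; 1 member that passed in no comparison is counted but not reported here by name. In the 3 gene lists, at most 4 genes per comparison were named, by smallest adjusted p. The members and lists were chosen with earlier results of these data known. Promoters came from RefSeq GRCr8 tables, matched by gene ID for 28 members, and no coordinates of rn5 are used.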

Additional observations from a re-analysis of the deposited data

Results flagged for a closer look

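Under the labels of the sample records, the compound D effect under GLT differed between 24 h and 3 h in 6 members, by the test of the difference itself. The differences of log2 effects (24 h minus 3 h) were -1.61 for Slc38a1, -2.99 for Slc6a5, -1.26 for Slc7a1, -2.07 for Slc7a11, 0.77 for Slc7a4 and -0.87 for Slc7a6. Each rests on which of conditions 2 and 3 is 3 h GLT. By the sheet's labels the same differences were -0.22, -1.34, 0.22, -0.72, 0.20 and -0.15 in the same order, and none passed.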

How the results depend on the processing

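With the sheet's labels, 5 members passed for 24 h GLT against 24 h control (5.97% of all genes) and 3 for 3 h GLT against 3 h control (2.3%). For 24 h control against 3 h control 0 passed (0.692%), and for 24 h against 3 h of GLT 8 passed (8.52%). For compound D at 3 h against 3 h GLT 0 passed (0.485%), and for the difference of compound D effects 0 passed (0.0318%). Of 30 member changes that these labels touch, 17 turned sign. For 24 h GLT against 24 h control, Slc1a4 became 0.44, Slc38a2 0.14, Slc6a17 0.31, Slc7a1 0.47 and Slc7a5 0.56. For 24 h against 3 h control, Slc1a4 became -0.39, Slc6a17 -0.15 and Slc7a5 -0.38, and for 24 h against 3 h of GLT Slc7a5 became -0.55. For compound D against GLT at 3 h, Slc1a4 became -0.48, Slc38a2 -0.071, Slc7a1 -0.22, Slc7a11 -0.073, Slc7a4 0.032, Slc7a5 -0.57 and Slc7a6 -0.25, and the difference of compound D effects became 0.22 for Slc7a1.

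Counts below use the records' labels. Without the preparation as a replicate block, 0 members passed for compound D against GLT at 24 h (1.75% of all genes) and 0 for E against D (1.18%). For 24 h against 3 h of GLT 3 passed (2.43%), and for compound D against GLT at 3 h 4 passed (3.4%). For the difference of compound D effects 3 passed (4.1%), and 22 of 40 member changes still passed. With library size alone as scaling, members passing in these 5 comparisons numbered 0, 1, 4, 1 and 0 (1.71%, 1.88%, 2.32%, 2.81% and 2.87% of all genes). They numbered 0 for 24 h against 3 h of compound D (1.91%), 2 for 24 h GLT against control (5.03%) and 0 for 24 h against 3 h control (0.533%). Of 40 changes 7 still passed. The median of all genes then shifted by -0.394 for E against GLT, -0.39 for E against D, 0.254 for 24 h GLT against control and -0.106 for 3 h GLT against control. It shifted by -0.275 for 24 h against 3 h control and 0.153 for compound D against GLT at 3 h. For the difference of GLT effects it shifted by 0.361, and for that of compound D effects by -0.153. With only the groups compared, 0 members passed for E against D (0 genes in all), 11 for 24 h against 3 h of compound D (1885 genes in all, 16.2% of those tested), 17 for 24 h GLT against control (3263 genes, 28.3%), 2 for 24 h against 3 h of GLT (357 genes, 3.1%) and 0 for compound D against GLT at 3 h (0 genes). DESeq2 called 5 members for compound D against GLT at 24 h (7.2% of all genes), 5 for E against D (6.64%), 11 for 24 h against 3 h of compound D (10.6%), 3 for 3 h GLT against control (3.08%), 8 for 24 h against 3 h control (4.69%) and 1 for the difference of GLT effects (0.883%), and all 40 changes passed with it. With RLE size factors 39 of 40 passed, and without the filter on low counts 35 of 40. The cause of these shifts was not tested.

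Leaving out a preparation or 1 of 2 libraries that stood apart gave 0 to 3 members for compound D against GLT at 24 h, 0 to 14 for E against GLT, 0 to 14 for E against D, 0 to 3 for compound D at 3 h against control and 0 to 8 for 24 h against 3 h of compound D. Both counts of 14 came without preparation 2, where 3241 genes in all (26.0% of those tested) passed for E against GLT and 4543 (36.4%) for E against D. Leaving out a preparation or library gave 0 to 9 for 24 h GLT against control (0.169% to 11% of all genes) and 0 to 1 for 3 h GLT against control (0.00803% to 1.18%). It gave 0 to 5 for 24 h against 3 h control (0.0562% to 3.02%) and 0 to 6 for 24 h against 3 h of GLT (0.121% to 8.26%). For compound D against GLT at 3 h it gave 0 to 10 (0.0562% to 11%). The difference of compound D effects gave 0 to 8 (0.0964% to 10.9%) and that of GLT effects 0 to 0 (0% to 0.0882%). For the compound D comparisons named first, the shares of all genes were 0% to 5.45% against GLT at 24 h and 0.00803% to 0.826% at 3 h against control. For 24 h against 3 h of compound D they were 0.0723% to 8.97%. Members near 1 CPM (Slc7a3, Slc7a10, Slc6a5) are limited by depth, and the level that 3 counts correspond to covers counting error only.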
